A study of Mus musculus with 14 samples.

Results

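The genes described here are 97 genes of the deposited count table, of 25131 rows in all, whose symbol starts with Kcn, the prefix of potassium channel genes. They were taken by symbol, and 1 other row with the prefix was left out. Annotation places all 97 on the mouse genome, 93 as protein-coding genes and 4 as noncoding transcripts that share the prefix (Kcnq1ot1, Kcnd3os, Kcnmb4os1 and Kcnmb4os2). The study, in mouse embryonic stem cells (ESCs) of C57BL/6 background, looked for proteins present at the Nanog promoter, mapped the binding of the corepressor RCOR2, and profiled transcripts in cells lacking it. RNA-seq compared 2 libraries of Rcor2 knockout (KO) ESCs with 2 libraries of wild-type (WT) ESCs. RCOR2 binding was read from ESCs expressing HA-tagged RCOR2 (2 libraries, merged into 1 peak list), with control pull-downs from WT cells and from cells expressing mCherry. Locus pull-down (TINC) used ESCs expressing a DNA-binding TALE protein aimed at Nanog, TALE 1 or TALE 2, with 2 libraries each. The culture medium of all groups held serum, LIF and 2i (a MEK inhibitor plus a GSK3 inhibitor). The deleted part of Rcor2, the number of clones and the promoter driving the tagged proteins are not stated in the labels.

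Potassium channels let potassium ions leave or enter cells down their gradient and so set the resting voltage and shape electrical activity. Most pore-forming subunits fall into voltage-gated channels (Kcna to Kcnd, Kcnf to Kcnh, Kcnq, Kcns and Kcnv), inward rectifiers (Kcnj), tandem-pore leak channels (Kcnk) and channels opened by calcium or sodium (Kcnma, Kcnn, Kcnt and Kcnu). Auxiliary subunits (Kcnab, Kcne, Kcnip and Kcnmb) change the gating or surface delivery of the pores. Many of these genes are used by neurons, heart and muscle. RCOR2 belongs to the CoREST family, which works with the demethylase LSD1 and histone deacetylases, and CoREST proteins are recruited to neuronal genes by the repressor REST.

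Depth was 2951498 and 1974865 counts in the KO libraries, against 2368804 and 1286393 counts in the WT libraries. Rcor2 was counted 157 and 103 times in the KO libraries, and 193 and 107 times in the WT libraries, so the counts do not show the deletion; the log2 fold change was −0.59 (SE 0.23), short of the threshold (adjusted p = 0.0636 by edgeR), which it passed when scaled by library size alone (−0.64, adjusted p = 0.0461). All 10 ESC markers passed the filter on low counts, with summed levels of 4587 and 4584 CPM (counts per 1000000) in KO libraries, against 4491 and 4206 CPM in WT libraries. Among these markers 2 rose and 2 fell in the KO (edgeR), beside 10.4% and 9.3% of all 10241 genes tested. The sums therefore do not show that each marker was unchanged. The 10 neuronal markers summed to 664 and 692 CPM in KO libraries, against 597 and 450 CPM in WT libraries, but Stmn2 on chromosome 3 made up 635 and 652 CPM of the KO sums, against 519 and 386 CPM of the WT sums. The other 9 summed to 28.6 and 39.2 CPM in KO libraries, against 78.4 and 64 CPM in WT libraries. Of the 10, 5 were tested, Stmn2 rose, and Rbfox3, Nefl and Elavl3 fell (edgeR), where 19.7% of all 10241 genes tested were called. Rbfox3 and Elavl3 could pass the filter only through their WT levels. Their falls are therefore a description and not read against that share. Centred on the median change of their chromosomes, Stmn2 was at 0.03 and Nefl at −1.04, and neither was called. Rbfox3 (−2.75) and Elavl3 (−2.81) were still called when centred. Sets of 8 markers summed to 46.3 and 27.2 CPM in KO libraries, against 10.1 and 19.8 CPM in WT libraries, for primitive endoderm; to 19.3 and 11.5 CPM, against 18.1 and 26.7 CPM, for fibroblasts; and to 8.63 and 21.5 CPM, against 22.3 and 15.2 CPM, for heart and smooth muscle. Dab2 alone made up 39 and 24.1 CPM of the primitive endoderm sums in KO libraries, against 6.74 and 13.7 CPM in WT libraries. The higher KO sums of that set therefore rest mainly on Dab2. The part of these marker sets in the results was not tested. Genes of some chromosomes were shifted together in the KO, with median log2 fold changes of 0.92 on chromosome 6, 0.52 on chromosome 8, 0.48 on chromosome 3 and −0.49 on chromosome 11, so a gene's own change and that of its chromosome cannot be told apart there. Chromosome Y, with only 2 genes tested, had a median of −6.02, and the cause was not tested.

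RCOR2 peaks lay in or near most potassium channel genes. Of the 97 genes, 69 (71.1%) had a peak in the gene interval or within 10 kb of it, beside 66.5% of all 25024 placed genes of the table. A peak lay inside the interval itself for 61 genes (62.9%), beside 49.4% of all genes. A strong peak, with a −log10 q of at least 10, was near 36 genes (37.1%), beside 22.4% of all genes. The potassium channel genes are also longer, with a median interval of 32.3 kb against 14.8 kb over all genes. Among intervals of 10 to 50 kb, 14 of 34 potassium channel genes (41.2%) and 22.9% of all genes had a strong peak. Among those of at least 50 kb the shares were 17 of 39 (43.6%) and 36.2%, and among those under 10 kb 5 of 24 (20.8%) and 14.9%. With any peak counted, the shares were 15 of 24 (62.5%) and 51.9% under 10 kb, 19 of 34 (55.9%) and 71.9% from 10 to 50 kb, and 35 of 39 (89.7%) and 85.3% from 50 kb, so the potassium channel genes were below all genes in the middle class. Counted per length, the windows held 1.91 peaks per 100 kb in the potassium channel genes and 3.39 over all genes. These counts come from 1 peak list without replicate values and were not tested.

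The 69 genes had 236 peaks between them, of which 6 each lay near a pair of the genes. Their median fold enrichment was 4.61, beside 4.38 for all 53366 peaks on chromosomes, and their median width 282 bp, beside 260 bp. Of the 236, 42 had a summit within 1 kb of a start in the RefSeq promoter table, 120 others lay inside a gene, and 74 others lay in the flanks. The table lists no start for 25 of the 97 genes, and the 72 peaks found at those genes alone (48 inside, 24 in the flanks) could not be among the 42, even where they lie close to a gene's end. In 33 of the flanking peaks the summit was inside another gene. Fold enrichment and −log10 q are the values of the authors' peak caller.

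Of the 10 genes with the strongest peaks, 8 are described. They included tandem-pore, voltage-gated, calcium-activated and auxiliary genes, and no inward rectifier. The strongest peak stood near Kcnk16, a tandem-pore channel known from pancreatic islets, at chr14:20253394-20257524 (GRCm38, as all positions here). It was 23.1-fold enriched with a −log10 q of 90.7 and a width of 4131 bp, ranked 147 among all peaks. Its summit lay in the predicted gene Gm2048 and 6650 bp outside the Kcnk16 interval. Kcnn1, a small-conductance calcium-activated channel, had 11 peaks, the most of any of the 97 genes. Its best peak, 17.7-fold enriched with a −log10 q of 60.8, was inside the neighbouring gene Ccdc124, 7643 bp from the Kcnn1 interval.

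Kcnc1 encodes a fast voltage-gated channel of neurons that fire at high rates. It carried a peak across its start at chr7:46396447-46397821, 13.8-fold enriched with a −log10 q of 41.3. Kcng2, a silent subunit that modifies other voltage-gated pores, and Kcnip2, a calcium-sensing partner of the Kcnd channels, each had a 14.4-fold peak inside the gene with a −log10 q of 45.1. Of the related tandem-pore channels Kcnk12 and Kcnk13, Kcnk12 had a 13.8-fold peak over its start (chr17:87797260-87799212, −log10 q of 41.3). Kcnk13 had a 13.1-fold peak inside the gene (−log10 q of 38.8), 14036 bp from its start, and a weak 3.92-fold peak 98 bp from the start. The best peak of Kcnh2, the channel of the cardiac rapid repolarizing current, lay 5969 bp outside the interval, 12.4-fold enriched with a −log10 q of 35.2.

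**Figure D1:**
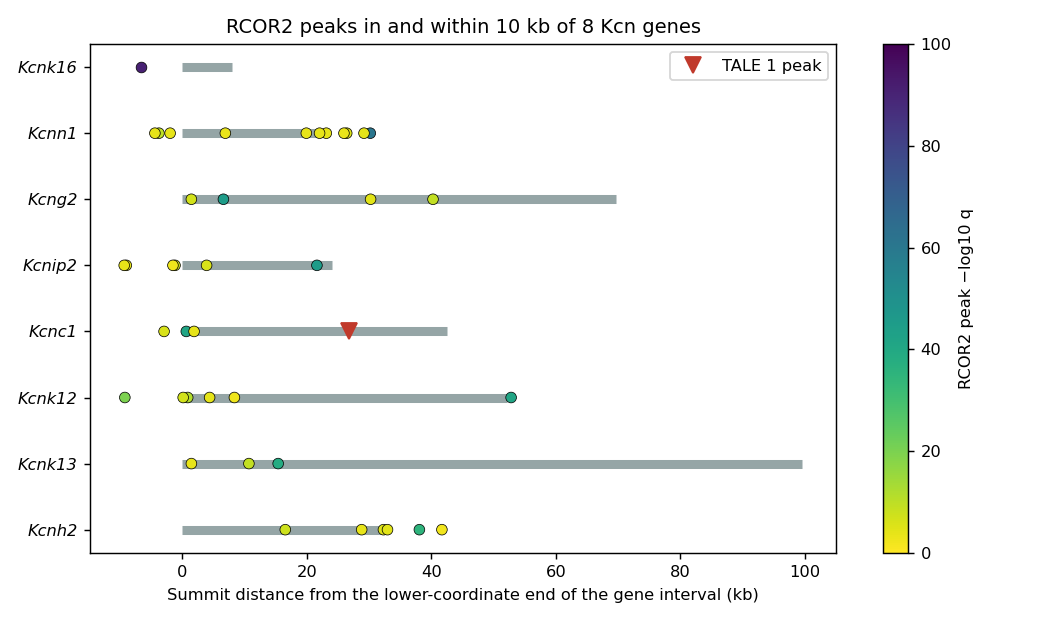
RCOR2 peaks (circles, coloured by −log10 q) in and within 10 kb of 8 Kcn genes with strong peaks, by summit distance in kb from the lower-coordinate end of the gene interval (grey bar). Kcnn1 shows 11 peaks with the strongest outside the bar, Kcnk16 shows 1, and the red triangle is the TALE 1 peak inside Kcnc1, away from the RCOR2 peaks near the gene's start.

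The families differed in how many members had a peak. All 8 Kcnh genes and all 4 Kcnc genes had at least 1, and 6 of the Kcnh and 4 of the Kcnc genes had a strong one. Of the 8 Kcna genes 2 had a peak and 0 a strong one, and of the 15 inward rectifiers 6 had a peak and 2 a strong one. Interval lengths of these families differ in the same direction. Their medians were 11.0 kb for Kcna, 29.7 kb for Kcnj, 32.2 kb for Kcnc and 156 kb for Kcnh, with Kcnj and Kcnc close together. Other families did not all follow length when medians are compared, but medians of 3 genes hide unlike lengths. All 3 Kcns genes had a peak at a median of 7.5 kb, although Kcns3 spans 60967 bp. Kcnd, at a median of 222 kb, had a peak in 2 of 3 genes and a strong one in 0. Its gene without a peak was the shortest, Kcnd1, at 14520 bp. Of the 13 tandem-pore genes 10 had a peak, of the 8 calcium- or sodium-activated channels 7, and of the 17 auxiliary genes 13. Neither silent subunit of the Kcnv family had one. Of the 32 genes without a count in any RNA-seq library, 19 (59.4%) had a peak, beside 36.1% of all 8359 placed genes without a count. Those 32 had a median interval of 31.1 kb, and the 8359 one of 4.79 kb.

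**Figure D2:**
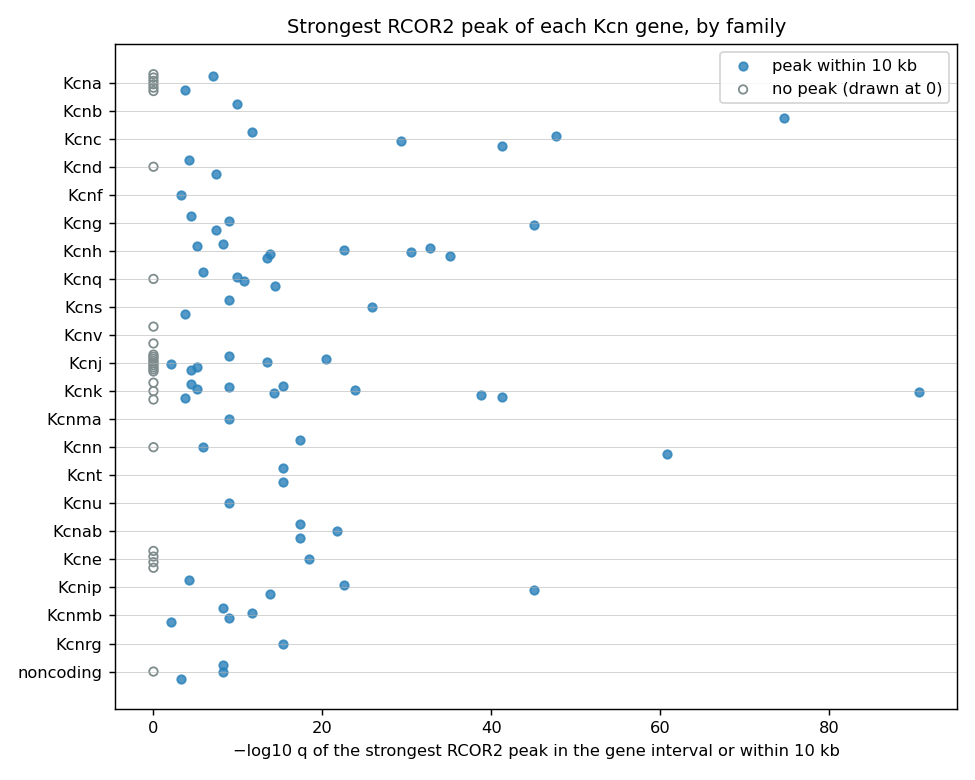
The −log10 q of the strongest RCOR2 peak in or within 10 kb of each Kcn gene, by family; open circles at 0 are genes without a peak. Kcnk16 is highest (90.7), Kcnn1 is at 60.8, and most Kcna and Kcnj genes have no peak.

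One peak of the TALE 1 pull-down lay in a potassium channel gene. It was at chr7:46422771-46423144 inside Kcnc1. Its enrichment was 16.2-fold and its −log10 q 25.4, ranking 1 by fold and 4 by −log10 q among the 13 TALE 1 peaks. Its summit was 26492 bp past the annotated start of Kcnc1, and the nearest RCOR2 summit was 24865 bp away, in a weak peak of 3.92-fold near the start of the gene. It overlapped no RCOR2 peak. None of the 4 TALE 2 peaks lay in or within 10 kb of any of the 97 genes. Kcnc1 had 0 counts in all 4 RNA-seq libraries, both KO and WT.

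RefSeq promoter windows, which run from 250 bases before to 50 bases after an annotated start, were matched by symbol for 72 of the 97 genes, giving 97 windows. An RCOR2 peak overlapped 23 of these windows (23.7%), in 22 genes, beside 23% of all 32851 windows. Windows with a peak held a median of 23 CG dinucleotides, and those without a peak 7. Over all genes the medians were 23 and 5. At least 10 CG dinucleotides were found in 20 of the 23 windows with a peak and in 26 of the 74 without one. The exceptions with a peak were 1 window of Kcnab2, with 3, and those of Kcnq1ot1 and Kcnk13, with 9 each. Kcnj4 had the most among windows without a peak, 41, although 7 peaks lay in or near the gene.

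**Figure D3:**
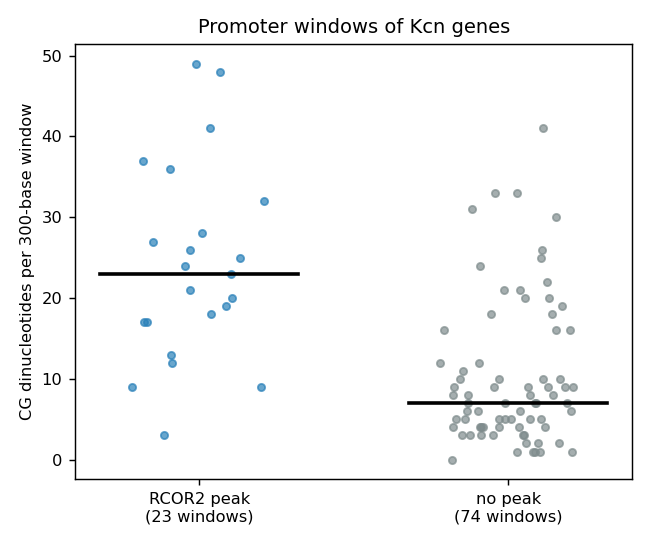
CG dinucleotides in each 300-base promoter window of Kcn genes, for 23 windows overlapping an RCOR2 peak and 74 windows without one; each point is a window and the black line is the median, 23 and 7. The groups overlap, with windows over 30 in both.

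The windows of 5 genes are shown from the RefSeq table of GRCm38.p6, 5′ to 3′ on the strand of the gene, with CG dinucleotides in capitals. Kcnc1 (chr7:46396218-46396517, plus strand, 41 CG) and Kcnk12 (chr17:87797945-87798244, minus strand, 20 CG) overlap the strongest peaks of any of the 97 windows. Kcnh6 (chr11:106007898-106008197, plus strand, 24 CG) follows them. Kcns3 (chr12:11150324-11150623, minus strand, 32 CG; peak overlapping) and Kcnk1 (chr8:125994852-125995151, plus strand, 10 CG; no peak) are the genes whose transcripts differed between KO and WT. The Kcnk1 window lies inside the gene interval, at the start that the table lists. CG dinucleotides are spread along the first 4 sequences, while those of Kcnk1 lie mostly in a repeat near its right end.
Kcnc1: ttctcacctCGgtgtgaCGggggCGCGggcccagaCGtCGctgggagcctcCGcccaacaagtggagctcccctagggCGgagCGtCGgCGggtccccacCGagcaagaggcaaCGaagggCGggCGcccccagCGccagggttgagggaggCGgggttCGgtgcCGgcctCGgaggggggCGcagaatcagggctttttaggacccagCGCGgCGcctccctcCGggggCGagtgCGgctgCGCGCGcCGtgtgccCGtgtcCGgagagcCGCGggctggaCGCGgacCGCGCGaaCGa
Kcnk12: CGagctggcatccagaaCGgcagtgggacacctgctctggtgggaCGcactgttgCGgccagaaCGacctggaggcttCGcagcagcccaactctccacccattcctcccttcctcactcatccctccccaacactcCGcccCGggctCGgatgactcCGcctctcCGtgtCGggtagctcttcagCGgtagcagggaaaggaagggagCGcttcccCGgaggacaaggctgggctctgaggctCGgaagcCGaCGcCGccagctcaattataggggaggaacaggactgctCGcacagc
Kcnh6: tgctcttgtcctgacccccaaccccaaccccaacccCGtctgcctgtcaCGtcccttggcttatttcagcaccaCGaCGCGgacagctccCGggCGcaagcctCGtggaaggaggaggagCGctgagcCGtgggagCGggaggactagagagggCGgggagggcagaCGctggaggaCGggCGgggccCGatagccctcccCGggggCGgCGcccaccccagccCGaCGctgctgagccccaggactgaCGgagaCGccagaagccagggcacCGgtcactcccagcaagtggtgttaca
Kcns3: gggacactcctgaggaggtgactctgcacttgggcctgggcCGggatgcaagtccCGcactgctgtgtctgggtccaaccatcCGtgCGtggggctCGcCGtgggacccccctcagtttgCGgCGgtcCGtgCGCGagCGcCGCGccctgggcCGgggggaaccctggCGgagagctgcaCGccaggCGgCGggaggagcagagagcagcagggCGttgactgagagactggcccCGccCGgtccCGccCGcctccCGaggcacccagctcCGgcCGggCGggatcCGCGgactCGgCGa
Kcnk1: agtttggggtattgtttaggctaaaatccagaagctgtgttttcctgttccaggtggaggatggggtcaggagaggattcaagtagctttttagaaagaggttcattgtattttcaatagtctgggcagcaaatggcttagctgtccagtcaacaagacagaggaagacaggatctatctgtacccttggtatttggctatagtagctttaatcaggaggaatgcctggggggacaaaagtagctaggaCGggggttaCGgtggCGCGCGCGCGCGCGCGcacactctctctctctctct

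The element bound by REST has a left and a right part, here searched on both strands by the letters CAGCACC and GGACAG, which do not overlap. CAGCACC was in 11 of the 97 windows (11.3%) and in 7.14% of all windows, and GGACAG in 29 (29.9%) and in 22.2%. Both parts with 2 bases between them, the usual spacing, were in 0 of the 97 windows and in 12 of all 32851 (0.0365%), and all 12 overlapped an RCOR2 peak. Kcnh6, a voltage-gated channel of the same family as Kcnh2, was the 1 gene of the 97 with both parts in this order on the same strand of a window. They start at positions 67 and 81 of the sequence above, with 7 bases between them, inside a peak of 11.9-fold with a −log10 q of 32.8. A match of letters is a description and not a binding site.

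Few potassium channel transcripts were counted in these cells. In bulk libraries, fewer cells with a transcript and less RNA per cell cannot be told apart. Of the 97 genes, 32 had 0 counts in all 4 libraries (33.0%, beside 33.5% of all rows) and 46 had 1 to 10 counts in all. Only 6 passed the filter on low counts (6.19%), beside 40.8% of all rows. A count of 0 allows a level of up to 1.04 and 1.57 CPM in the KO libraries, and 1.26 and 2.29 CPM in the WT libraries (3 counts each). Summed over the 93 protein-coding genes, the level was 116 and 110 CPM in the KO, against 116 and 114 CPM in WT. The exact 95% counting intervals reached from 95.5 to 129 CPM over KO libraries and from 96.7 to 134 CPM over WT libraries. These ranges overlap and cover counting error only. A difference in the sum was not tested. Kcnk5 alone made up 34.1% and 31.0% of that sum in the KO, and 32.4% and 31.3% in WT.

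Of the 6 genes tested, 2 fell in the KO and 0 rose, beside 9.3% and 10.4% of all 10241 genes tested (edgeR, adjusted p under 0.05; 19.7% in either direction). The median log2 fold change of the 6 was −0.30, beside −0.02 over all genes tested. The other 4 were not called. Kcns3 and Kcnk1 could pass the filter only through their WT levels. The count of 2 is therefore a description and not read against the background.

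Kcns3 encodes a silent voltage-gated subunit that forms channels only together with other voltage-gated pores. It was counted 1 and 0 times in the KO libraries (0.345 and 0 CPM), against 16 and 11 times in the WT libraries (6.74 and 8.38 CPM). The groups did not overlap, and the KO libraries were at or near 0. The ratio of summed counts per depth, KO over WT, was 0.0284, with an exact 95% counting interval of 0.000693 to 0.172. The fitted log2 fold change was −4.83 (SE 1.13, adjusted p = 0.00108 by edgeR). Since the gene passed the filter through its WT level, the fit without the filter is set beside it (−4.83, SE 1.32, adjusted p = 0.00463 by edgeR). Fitted values ran from −6.81 without KO replicate 1, where the KO count is 0, to −4.23 without KO replicate 2, so the size depends on a single KO count. Kcns3 lies on chromosome 12, whose median change was −0.04. RCOR2 had 5 peaks in the gene, 3 of them within 1 kb of a start. The best, at chr12:11150296-11150597, was 5.75-fold enriched with a −log10 q of 9.00 and a summit 53 bp from the start, stronger than 78.5% of all peaks.

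Kcnk1 encodes a tandem-pore leak channel with a weak current at the cell surface. It was counted 14 and 6 times in the KO (4.83 and 3.14 CPM), against 39 and 15 times in WT (16.4 and 11.4 CPM). Both KO libraries were below both WT libraries. The mean level was 3.99 ± 1.20 CPM in KO cells, against 13.9 ± 3.54 CPM in WT cells (SD, n = 2 each), and the log2 fold change −1.78 (SE 0.62, adjusted p = 0.0328 by edgeR). Kcnk1 too passed the filter through its WT level, and the fit without the filter gave −1.76 (SE 0.59, adjusted p = 0.0305 by edgeR). The call was lost without KO replicate 1 (−2.15), without KO replicate 2 (−1.54), without WT replicate 1 (−1.46) and with DESeq2 (−1.79), where the adjusted p ran from 0.0858 to 0.285. Kcnk1 lies on chromosome 8, whose genes were shifted up, and centred on that shift it was at −2.29 (edgeR, adjusted p = 0.00746). No RCOR2 peak lay in the gene or within 10 kb.

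**Figure D4:**
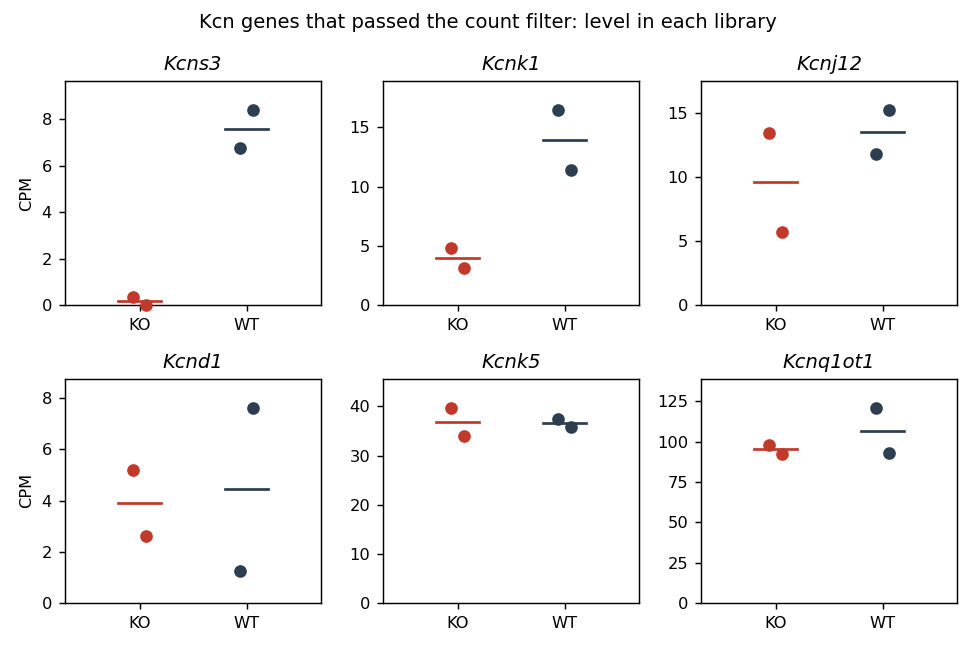
Level in CPM of the 6 Kcn genes that passed the filter, in each of 2 KO (red) and 2 WT (dark) libraries; horizontal lines are group means. For Kcns3 and Kcnk1 both KO libraries lie below both WT libraries, and for the other 4 genes the groups overlap.

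The 4 other tested genes did not pass the threshold. Kcnk5, a tandem-pore channel sensitive to pH outside the cell, had 39.7 and 34.0 CPM in the KO, against 37.5 and 35.8 CPM in WT. Its groups overlapped, with a log2 fold change of 0.01 (SE 0.30, adjusted p = 0.988 by edgeR). Kcnj12, an inward rectifier of heart and muscle, had 13.5 and 5.76 CPM in the KO, against 11.8 and 15.2 CPM in WT (log2 fold change −0.43, SE 0.54, adjusted p = 0.646 by edgeR). On chromosome 11, whose genes were shifted down, it was at 0.05 when centred. Kcnd1, a voltage-gated channel of transient currents, had 5.18 and 2.62 CPM in the KO, against 1.26 and 7.62 CPM in WT, and its log2 fold change was 0.02 (SE 0.76, adjusted p = 0.989 by edgeR). The WT libraries of Kcnd1 stood further apart than the groups did. A p that misses the threshold does not show that these levels are alike, and the errors of Kcnj12 and Kcnd1 leave room for changes of either sign.

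Kcnq1ot1 is not a channel but a noncoding RNA made from within Kcnq1, on the opposite strand, which is known to silence imprinted neighbours on the paternal chromosome. It was the most counted of the 97 genes, at 98.0 and 92.6 CPM in the KO, against 121 and 93.0 CPM in WT. The log2 fold change was −0.18 (SE 0.20, adjusted p = 0.615 by edgeR). Kcnq1, the channel of a slow repolarizing cardiac current, had 0 counts in every library. The sources used here do not state whether counting used strand, so reads of overlapping transcripts could not be told apart. Of 3 RCOR2 peaks within 1 kb of the Kcnq1ot1 start, the best placed were at chr7:143296408-143296538 (4.84-fold, −log10 q of 5.89, summit 46 bp from the start) and chr7:143296742-143297318 (5.52-fold, −log10 q of 8.23, 363 bp).

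Of the 91 genes below the filter, 3 of the 5 with the most counts are given as counts. Kcnu1, a potassium channel of sperm, had 17 and 2 counts in the KO, against 9 and 5 in WT, a ratio per depth, KO over WT, of 1.04 (exact 95% counting interval 0.494 to 2.24). The interval includes a ratio of 1. So do those of Kcnab2, an auxiliary subunit of Kcna channels, at 11 and 7 counts in the KO against 7 and 1 in WT (ratio 1.72, 0.713 to 4.58), and of Kcnn2, a small-conductance calcium-activated channel, at 5 and 5 against 6 and 10 (0.479, 0.194 to 1.12). A pair of inward rectifiers, Kcnj4 and Kcnj13, is added after its values were seen. Kcnj4 had 6 and 15 counts in the KO, against 2 and 1 in WT, a ratio of 5.36 (1.60 to 28.1). Kcnj13 had 7 and 13 counts in the KO, against 4 and 0 in WT, a ratio of 3.83 (1.28 to 15.4). Without the filter neither passed the threshold (edgeR, adjusted p = 0.241 for Kcnj4 and 0.341 for Kcnj13). Kcnj4 had 7 RCOR2 peaks, the best 7.13-fold with a −log10 q of 13.5, and Kcnj13 had none within 10 kb. These intervals cover counting error only, not the spread between libraries.

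RCOR2 peaks and detection were set side by side. Of the 69 genes with a peak 19 had 0 counts and 4 were tested, and of the 28 without a peak 13 had 0 counts and 2 were tested. The genes with a peak had a median interval of 50.7 kb, and those without one 15.3 kb. Of the 10 genes with the strongest peaks, 0 passed the filter, and the 2 that fell were Kcns3, with peaks over its start, and Kcnk1, with none.

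A further list held 30 genes without the Kcn prefix, not all of which move potassium themselves. They include cyclic-nucleotide-gated pacemaker channels, channel partners, sodium-potassium pumps and chloride cotransporters. Of the 30, 10 were tested, of which 2 rose and 1 fell in the KO (edgeR), beside 10.4% and 9.3% of all 10241 genes tested. Slc12a4, a potassium-chloride exporter, had 32.4 and 34.0 CPM in the KO, against 15.2 and 16.0 CPM in WT, and rose by 1.09 on the log2 scale (SE 0.37, adjusted p = 0.0268 by edgeR). It lies on chromosome 8, was at 0.58 when centred and not called, and lost its call without KO replicate 1 (1.13), without KO replicate 2 (1.06) and without WT replicate 1 (1.07) and with DESeq2 (1.10). Slc12a2, a sodium-potassium-chloride importer, had 31.2 ± 8.60 CPM in KO cells, against 61.1 ± 1.26 CPM in WT cells (SD, n = 2 each), and fell by 0.95 on the log2 scale (SE 0.28, adjusted p = 0.0102 by edgeR). Its call was lost without KO replicate 2 (−0.71), without WT replicate 1 (−0.91) and with DESeq2 (−0.95). The pacemaker channel gene Hcn4 had 0 counts in all libraries, with 4 RCOR2 peaks in or within 10 kb. The corepressor genes were Rest, Rcor1, Rcor2, Rcor3, Kdm1a, Hdac1 and Hdac2. All 7 were tested and 0 were called (edgeR), beside 19.7% of all 10241 genes tested. Rcor2 was called with library size alone, as given above. Rcor2 and Hdac2 were lower at an unadjusted p under 0.05, and with DESeq2 Rcor2 alone was, with 0 called. Rest averaged 350 ± 40.9 CPM in KO cells, against 390 ± 27.1 CPM in WT cells (SD, n = 2 each).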

How the data were processed

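The authors deposited raw read counts per gene for 4 RNA-seq libraries and 3 peak lists with a fold enrichment (a ratio) and a −log10 q per peak. Per the submitters' processing notes, Trimmomatic 0.36, STAR 2.5.2b, Subread, featureCounts, Bowtie2 2.3.4.1 and MACS2 2.1.1.20160309 were used with GRCm38 and mm10; which control served each call, use of strand and treatment of molecular identifiers are not stated there. Per the peak names, RCOR2 peaks were called on merged libraries. In the peak lists, 1 peak on the tagged Rcor2 construct was left out.

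Counts were tested for all genes with edgeR 4.0.16 (R 4.3.3): filterByExpr, TMM, quasi-likelihood test, two-sided, Benjamini-Hochberg adjustment at 0.05. SE comes from the fold change and F. CPM use TMM-scaled library sizes. The fit was tested on simulated counts. Alternatives were DESeq2 1.42.0, library size alone, no filter, each library left out, the replicate number as a block, and centring each chromosome on its median. Replicates are not said to be separate cultures, so p-values measure only the spread between libraries, which may be technical. Gene intervals (25024 rows placed, 24692 by symbol and 332 by synonym) and promoter windows came from RefSeq for GRCm38.p6. A peak counted when it shared at least 1 base with the interval or its 10 kb flanks. Genes named are those that passed the filter, the 10 with the best peaks, Kcnc1 and the 5 most counted below the filter. Members and lists were chosen with earlier results of these data known. Some genes that these rules or lists select are not reported here.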

Additional observations from a re-analysis of the deposited data

How the results depend on the processing

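The number of potassium channel genes called lower in the KO was 2. It ranged from 1 to 2 with a library left out and was 1 with DESeq2, where Kcns3 was called and Kcnk1 was not; the cause was not tested. None was called higher by edgeR or DESeq2 under any alternative. Without the filter, edgeR called the same pair, and 2 genes, Kcnj4 among them (0.0492), were higher at an unadjusted p under 0.05. The labels do not say whether equal replicate numbers mark pairs. The replicate differences of KO and WT had a correlation of −0.05 over 10241 genes, which cannot exclude a shared preparation. The replicate block left 2 lower calls among the potassium channel genes, with Kcnk1 at −1.79 and Kcns3 at −4.83. Of the genes not called, Kcnj12 changed sign when centred on its chromosome (0.0513) or without a library (−1.21 to 0.0125). Kcnk5 did so with library size alone (−0.0411) or without a library (−0.11 to 0.11), Kcnq1ot1 without a library (−0.342 to 0.0569), and Kcnd1 with library size alone (−0.0319), DESeq2 (−0.10) or without a library (−0.89 to 1.63). The genes with a peak were 52 (53.6%, beside 40.9% of all genes) at a fold of at least 5, 57 (58.8%, beside 51%) at a −log10 q of at least 5, 61 (62.9%, beside 49.4%) in the interval alone and 83 (85.6%, beside 85.5%) within 50 kb, so the share was near that of all genes at the widest distance. The 236 peaks became 129 at a −log10 q of at least 5, 92 at a fold of at least 5 and 462 within 50 kb. The 23 promoter windows with a peak became 14 at a fold of at least 5 and 10 with the summit inside the window, under settings chosen after seeing the data; the share over all windows was then 10% and 10.8%. Over all genes, calls numbered 2014, against 1156 with DESeq2, 1130 and 1126 without KO replicate 1 and 2, and 1328 when centred. Rcor2 was called with library size alone (−0.64). Low counts limit the precision: 91 of 97 genes were below the filter, and 32 had no counts.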
